A study of Saccharomyces cerevisiae with 67 samples.

Results

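Ribosome biogenesis genes encode the proteins that make ribosomes without staying in them. The genes described here are the nuclear protein-coding genes of budding yeast whose symbol is NOP, UTP, RRP, NOC, URB or RIX followed by a number only, together with SDA1. The rule found 61 of 6002 nuclear protein-coding genes, made up of 17 NOP, 18 UTP, 18 RRP, 3 NOC, 2 URB and 2 RIX genes and SDA1, on 14 of the 16 nuclear chromosomes. The rule reads gene symbols only. The study grew BY4741 wild-type (WT) cells and BY4741 cells that lack MIP6 (mip6D, the gene of an RNA-binding protein) in rich medium to exponential phase, and divided every culture into a flask left at 30 °C and flasks brought to 39 °C by hot medium for 20 and 120 min. It made RNA-seq, histone H4 ChIP-seq and ChIP-seq of histone H4 acetylated at lysine 12 (H4K12ac). The values below rest on 1 deposited list of H4K12ac regions, in which peaks were merged across samples. Of the 19 H4K12ac libraries described here, 3 WT and 4 mip6D libraries were from 30 °C, 1 WT and 3 mip6D libraries from 20 min at 39 °C, and 4 WT and 4 mip6D libraries from 120 min at 39 °C. Replicates 1 and 2 were cultured on another day than replicates 3 and 4. The list does not name the libraries that went into it. RNA levels and H4 signal were not analysed here.

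The list holds 1970 regions, with a median length of 2835 bp, which cover 61.8% of the nuclear genome. It gives positions only, with no height, read count or library, so the depth behind a region is unknown and there is no replicate error. Strains, temperatures and times cannot be told apart in it, and no test between them could be made. The results are therefore counts, shares and medians over genes, most of them beside the same value over other genes, all genes or genes of similar length. A value with none beside it, such as a median by complex, is a description only. Genes are not replicates, and no p-value is given. Coordinates are those of the saccer3 (R64) genome, and a gene runs from the first base of its start codon to the last base of its stop codon, so the gene start lies downstream of the true start of transcription.

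As background, ribosomal RNA is transcribed in the nucleolus as a long precursor, onto which small nucleolar ribonucleoproteins (snoRNPs) and assembly factors load while it is being made. The UTP proteins belong to the small subunit processome, the particle in which the precursor of the small subunit is folded and cut around the U3 snoRNA. The exosome trims the ends of precursors, and the NOC, RIX and other factors lead the subunits from the nucleolus to the nuclear pore. Yeast controls these genes together with growth, through a pair of promoter elements named PAC and RRPE, which are bound by the repressors Dot6 and Tod6 and by Stb3. H4K12ac is placed largely by the Esa1 acetyltransferase and is associated with the promoters of transcribed genes.

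Every ribosome biogenesis gene had an H4K12ac region over its start. A region touched the window of 100 bp on each side of the start in 61 of 61 genes, or 100% (95% exact Clopper-Pearson interval 94.1 to 100%, for counting error only), where the share over all nuclear protein-coding genes was 90.5%. In each of the 61 genes the whole window lay inside 1 region, against 89.2% of all genes. The region ran at least 295 bp upstream of the start, the lowest value being that of UTP30, and at least 429 bp downstream, the lowest value being that of NOP8. Each gene was also set against the 200 other genes nearest to it in length, of which 90.9% were touched on average, 9.11 percentage points fewer. Repeated sequence and chromosome ends moved with this difference. None of the 61 windows held a 50-mer that occurs elsewhere in the genome, against 5.18% of the windows of other genes, and 0 of the 61 genes lay in the last 30 kb of a chromosome arm, against 6.55% of other genes. Against genes of similar length with a unique window the difference was 4.95 percentage points, and against those that also lay more than 30 kb from a chromosome end it was 4.26.

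**Figure D1:**
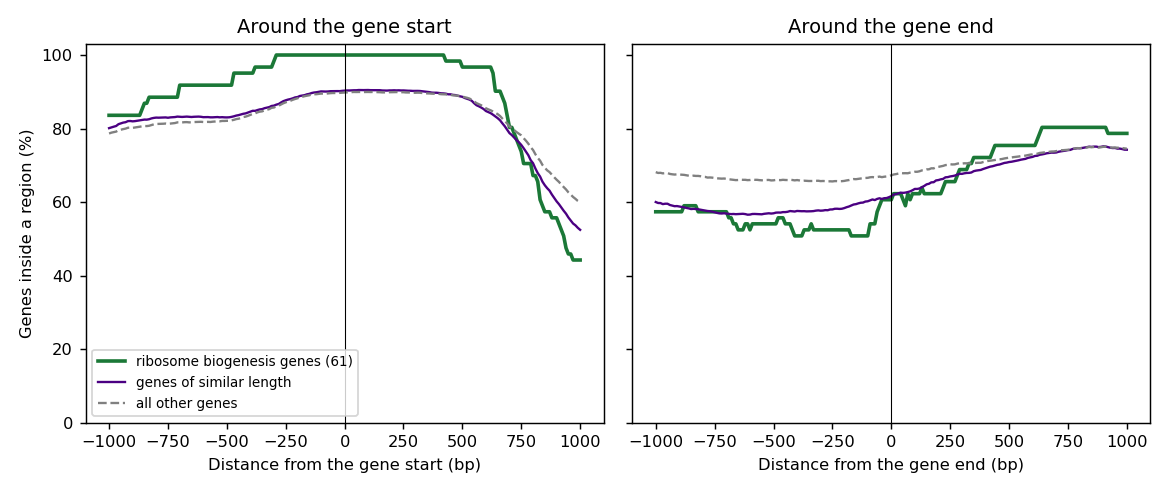
Share of genes inside an H4K12ac region (y axis, %) by distance in bp from the gene start (left) and the gene end (right), for the 61 ribosome biogenesis genes, the other genes nearest to them in length and the 5941 other nuclear protein-coding genes. Around the start the ribosome biogenesis genes lie at 100%, 400 bp downstream they are still at 100%, and at 1000 bp downstream they have come down to 44.3%.

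The share of ribosome biogenesis genes inside a region was above that of genes of similar length near the start and below it further downstream, as the plot of shares around the start shows. At 500 bp upstream it was 91.8%, against 83.0% in genes of similar length. At 500 bp downstream it was 96.7%, against 88.6%. At 800 bp downstream the order had turned, with 67.2% against 70.6%, and at 1000 bp downstream the shares were 44.3 and 52.5%. Distances were counted whatever the gene length, so at 1000 bp the 18 genes under 1000 bp are read beyond their end.

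The promoters of these genes lay wholly under H4K12ac regions and were rich in the PAC and RRPE elements. The promoter was taken as the 250 bases before the start and the first 50 of the gene. It lay inside 1 region in 61 of 61 ribosome biogenesis genes and in 86.0% of other genes. The PAC core, GATGAG on either strand, was present in the 250 bases before 50 of the 61 genes, or 82.0%, where 17.0% of all promoters of this length hold it. The RRPE core, AAAATTTT, which reads the same on both strands, was present before 37 genes, or 60.7%, against 8.65% of all promoters. Both were present before 31 genes, or 50.8%, against 4.08%. The letters TATAAA, the common form of the TATA box, were found before 20 genes, or 32.8%, against 43.4% of all promoters. A match is a match of letters and does not show that a factor is bound. The PAC cores had their first base at a median of 119 bp before the start (quartiles 99 and 135) and the RRPE cores at 133 bp (116 and 161).

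**Figure D2:**
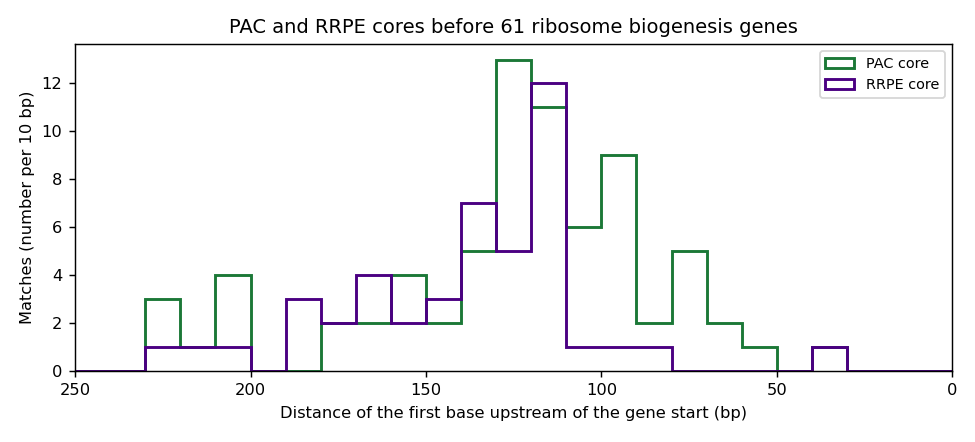
Number of PAC and RRPE cores (y axis, matches per 10 bp) by the distance of their first base upstream of the gene start (x axis, bp) in the 61 ribosome biogenesis genes. The quartiles are 99 and 135 bp before the start for the PAC cores and 116 and 161 bp for the RRPE cores.

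The promoters in which the 2 cores lie closest together are printed here because they show the elements that lie under the regions, with both cores in capitals, 5′ to 3′ in the direction of the gene, from 250 bases before the start to 50 after it. NOP58 (chrXV:898311-898610, minus strand) has its PAC core on the opposite strand, where it reads CTCATC, 1 bp from the second of its RRPE cores. NOC3 (chrXII:156285-156584, minus strand) has the cores 2 bp apart, again with PAC on the opposite strand. RRP5 (chrXIII:731074-731373, minus strand) has a pair of RRPE cores followed by overlapping PAC cores, and RRP8 (chrIV:611823-612122, plus strand) has 1 core of each kind, 2 bp apart.
NOP58: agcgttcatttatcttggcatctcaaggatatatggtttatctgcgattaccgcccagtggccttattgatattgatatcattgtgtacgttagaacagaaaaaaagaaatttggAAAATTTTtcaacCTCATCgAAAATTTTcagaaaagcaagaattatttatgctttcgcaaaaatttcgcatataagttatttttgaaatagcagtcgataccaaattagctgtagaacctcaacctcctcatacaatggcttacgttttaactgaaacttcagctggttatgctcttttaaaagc
NOC3: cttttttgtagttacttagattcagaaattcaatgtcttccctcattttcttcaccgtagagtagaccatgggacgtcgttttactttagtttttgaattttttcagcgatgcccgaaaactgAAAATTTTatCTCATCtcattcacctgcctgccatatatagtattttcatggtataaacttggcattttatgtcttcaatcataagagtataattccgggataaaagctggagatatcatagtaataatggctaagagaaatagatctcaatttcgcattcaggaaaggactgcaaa
RRP5: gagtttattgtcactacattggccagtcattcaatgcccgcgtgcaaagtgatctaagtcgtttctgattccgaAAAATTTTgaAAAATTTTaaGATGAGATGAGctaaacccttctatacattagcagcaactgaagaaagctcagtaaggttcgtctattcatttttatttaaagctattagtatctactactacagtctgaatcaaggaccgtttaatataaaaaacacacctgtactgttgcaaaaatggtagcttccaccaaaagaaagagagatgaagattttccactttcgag
RRP8: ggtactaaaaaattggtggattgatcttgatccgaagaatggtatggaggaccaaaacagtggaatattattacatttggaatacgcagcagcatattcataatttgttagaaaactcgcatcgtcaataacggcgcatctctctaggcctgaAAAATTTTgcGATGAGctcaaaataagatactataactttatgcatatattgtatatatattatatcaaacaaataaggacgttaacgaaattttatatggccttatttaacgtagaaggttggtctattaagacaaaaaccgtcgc

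Neither core was found before RRP42, RRP45, RRP46, UTP22 and UTP30, and 3 of these 5 encode subunits of the exosome ring. The PAC core, the RRPE core or both were found before 56 of the 61 genes, or 91.8%, against 21.6% of all promoters. Most promoters over all genes therefore hold neither core, and its absence does not set these 5 apart from genes in general. Among the 7 exosome genes that fit the naming rule, the PAC core was found before RRP4, RRP40 and RRP43 and the RRPE core before RRP6. The start windows of the 5 genes with neither core lay inside a region, as did those of the 31 genes with both.

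Beyond the start, the region usually stopped inside the gene. Of the 43 ribosome biogenesis genes of at least 1000 bp, the region at the start ended before the gene did in 37. In these 37 genes it reached a median of 817 bp from the start (quartiles 687 and 936, range 429 to 1401). Of the 3178 other genes of at least 1000 bp with a region over the start, it ended inside 1970, or 62.0%, at a median of 818 bp (quartiles 679 and 952). Ribosome biogenesis genes are longer, with a median length of 1542 bp against 1197 bp, so genes of at least 2000 bp were also compared. There the region ended inside 21 of 21 ribosome biogenesis genes, at a median of 823 bp (quartiles 696 and 914), and inside 1092 of 1171 other genes with a region over the start, or 93.3%, at a median of 811 bp (672 and 943). The medians of the 2 groups differed by less than the spread within either. These medians cover only genes inside which the region ended. Over all genes with a region over the start, and with reach counted past the gene end, the median was 935 bp, against 1659 bp in other genes.

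In the 7 genes of 3000 bp or more the reach ran from 497 bp in UTP22 to 1194 bp in RRP12, and the longest genes lay within this range. UTP20 (YBL004W, chromosome II, 227636 to 235117), a very large repeat protein of the small subunit processome, is 7482 bp long, and the region at its start reached 629 bp. UTP10 (YJL109C, chromosome X, 212000 to 217309), of the UTP-A complex that binds the 5′ end of the precursor first, is 5310 bp long, with a reach of 800 bp. URB1 (YKL014C, chromosome XI, 411619 to 416913), which acts in early large subunit assembly, is 5295 bp long, with a reach of 914 bp. RRP5 (YMR229C, chromosome XIII, 725934 to 731123), which is needed for both subunits, is 5190 bp long, with a reach of 828 bp. The shortest reaches were 429 bp in NOP8, a large subunit factor, and 497 bp in UTP22, which forms the UTP-C complex with RRP7. The longest within a gene was 1401 bp, in NOP4, an RNA-binding large subunit factor.

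**Figure D3:**
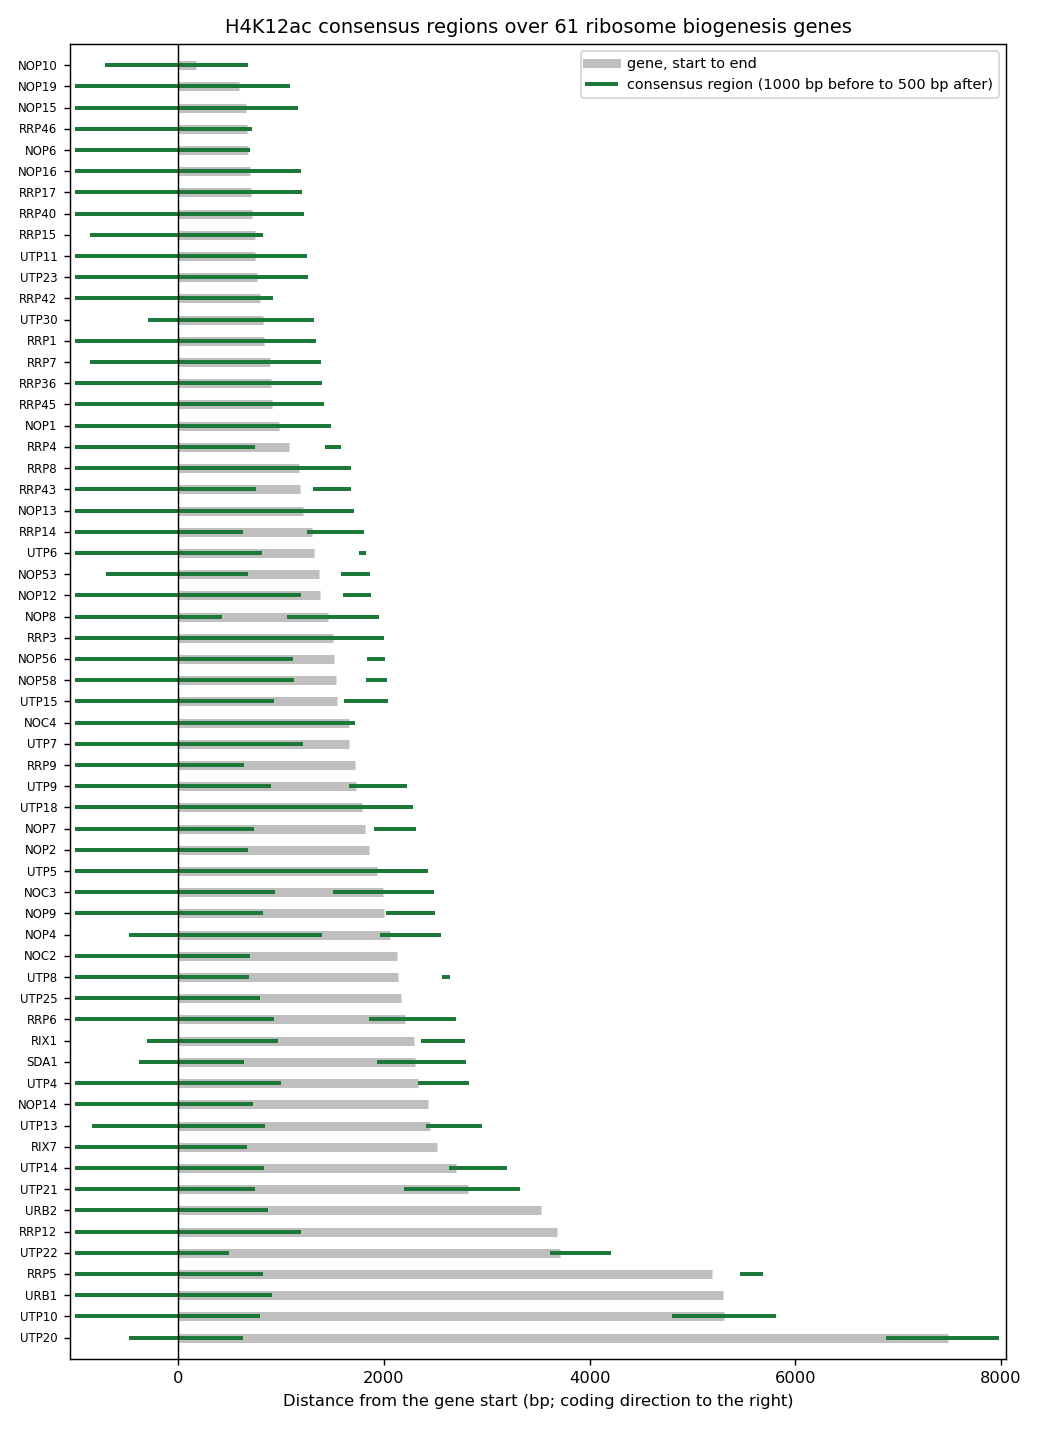
H4K12ac consensus regions (green) over each of the 61 ribosome biogenesis genes (grey, sorted by length), by distance from the gene start in bp (x axis), drawn from 1000 bp before the start to 500 bp after the end. All 61 starts are green, and in 37 genes the green bar stops inside the gene, between 429 and 1401 bp from the start.

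A further region lay in 13 of the 37 genes, or 35.1%, against 29.5% of the 1970 other genes in which the region at the start ended, and in 13 of 13 it covered the gene end. It covered between 47 bp, in UTP13, and 628 bp, in UTP21, both of the UTP-B complex. No ribosome biogenesis gene held a region that began and ended within the gene and away from both its ends, and among the 582 other genes with a further region 3 did. The bodies of these genes therefore had a covered stretch at the start, an uncovered one and, in some, a covered stretch at the end.

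The share of the gene inside regions followed gene length. The median covered share of the 61 genes was 69.2% (order-statistic interval of the median 49.5 to 100%), with quartiles of 37.1 and 100% and a range from 16.0 to 100%, and over all other genes the median was 100%. No ribosome biogenesis gene was without cover, where 7.79% of other genes were. From start to end, 24 of 61 genes, or 39.3%, were covered, against 55.0% of all genes and against 45.0% of genes of similar length. The median difference from genes of similar length was 0 percentage points (interval -2.05 to 0), with 16 genes above, 20 equal and 25 below. In the 20 equal genes, the 18 under 1000 bp among them, the gene and the median it was set against were both at 100%. No share can exceed this limit, so the median of 0 rests partly on these ties and does not show that longer genes are alike. The 18 genes under 1000 bp were covered from start to end, as were 88.9% of genes of similar length. Of the 22 genes from 1000 to under 2000 bp, 6 were covered from start to end, or 27.3%, against 45.1% of genes of similar length. In this class the median difference was -11.8 percentage points, but its interval ran from -27.7 to 9.69. In the 14 genes from 2000 to under 3000 bp it was -2.41 percentage points (-12.2 to 11.4). In the 7 genes of 3000 bp or more it was 2.33 (-9.18 to 9.69). In these last genes the comparison turned to -2.26 (-10.6 to 5.59) against genes with a unique window. Of the 200 genes nearest in length to UTP10, 57 have repeated sequence there.

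**Figure D4:**
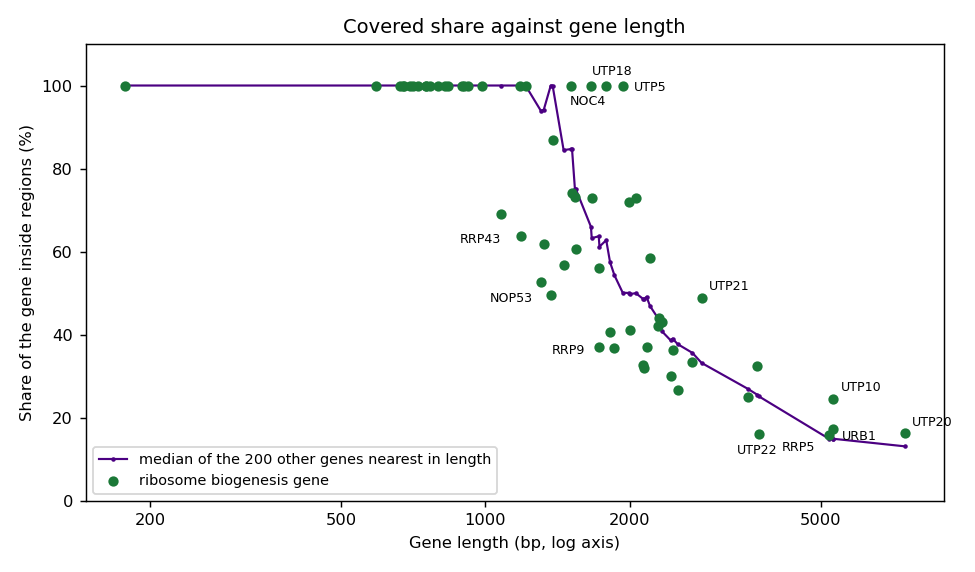
Share of each ribosome biogenesis gene inside H4K12ac regions (y axis, %; green points) against gene length (x axis, bp, log axis), with the median of the 200 other genes nearest in length (purple). The 18 genes under 1000 bp lie at 100%, and the points fall to between 16.0 and 32.4% in the 7 genes of 3000 bp or more.

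Single genes lay far on both sides of their length class. UTP5 of the UTP-A complex was covered from start to end over 1932 bp, where genes of its length had a median of 50.1%, and UTP18 of the UTP-B complex over 1785 bp, against 62.8%. NOC4, which pairs with NOP14 in the small subunit processome, was covered over 1659 bp, against 66.0%. At the other end, NOP53, which brings the exosome to the large subunit precursor, was covered over 49.5% of 1368 bp, against 100%. RRP14, a factor for both subunits, was covered over 52.6%, against 93.9%. The lowest shares of all were 16.0% in RRP5, 16.0% in UTP22 and 16.4% in UTP20. UTP5, UTP18, NOC4, NOP53 and RRP14 were chosen here after their values were seen.

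By complex, with only the genes that fit the naming rule counted, start windows were touched in each group, and covered shares ranged widely within most groups. Subunits of these complexes under other names are not in the values. NOP1, the methyltransferase of the box C/D snoRNPs that methylate ribosomal RNA, was covered from start to end (984 bp). Its partners NOP56 and NOP58, the core proteins that hold the guide RNA, were covered over 74.1 and 73.2%, and in both the region ended at similar distances, 1122 and 1125 bp. NOP10, a small protein of the box H/ACA snoRNPs that make pseudouridine, is 177 bp long and lay inside a region of 2517 bp. The 6 UTP-A genes had a median covered share of 49.5%, from 24.6% in UTP10 to 100% in UTP5, and the 4 UTP-B genes one of 55.3%, from 36.4% in UTP13 to 100% in UTP18. In the UTP-C complex, RRP7 and RRP36 were covered from start to end, and UTP22 over 16.0%.

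Of the 7 exosome genes, 4 were covered from start to end, namely RRP40 of the cap and RRP42, RRP45 and RRP46 of the ring. These 4 are under 1000 bp long, and their share of the 7, 57.1%, compares with 73.3% of genes of similar length. RRP4, the other cap protein named here, was covered over 69.2% and RRP43 of the ring over 63.9%, where the median of genes of similar length was 100% for both. RRP6, the exonuclease of the nuclear exosome, was covered over 58.4%, of which 350 bp lay at its end. In the NOC group, NOC2, which escorts large subunit precursors with partner proteins, was covered over 32.6%, NOC3 over 71.8% and NOC4 from start to end.

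Among the other factors, those of the small subunit had a median covered share of 57.0% (14 genes) and those of the large subunit 56.8% (19 genes). Of the factors for both subunits, RRP5 was counted with the small subunit and RRP14 with the large. RIX1, of the complex that readies the large subunit precursor for release from the nucleolus, was covered over 42.2%, where genes of its length had a median of 43.8%. SDA1, needed for late nuclear steps of the large subunit, was covered over 44.0%, against 42.8%. RRP12, an export factor for both subunits and in none of these groups, was covered over 32.4%, against 25.5%.

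**Figure D5:**
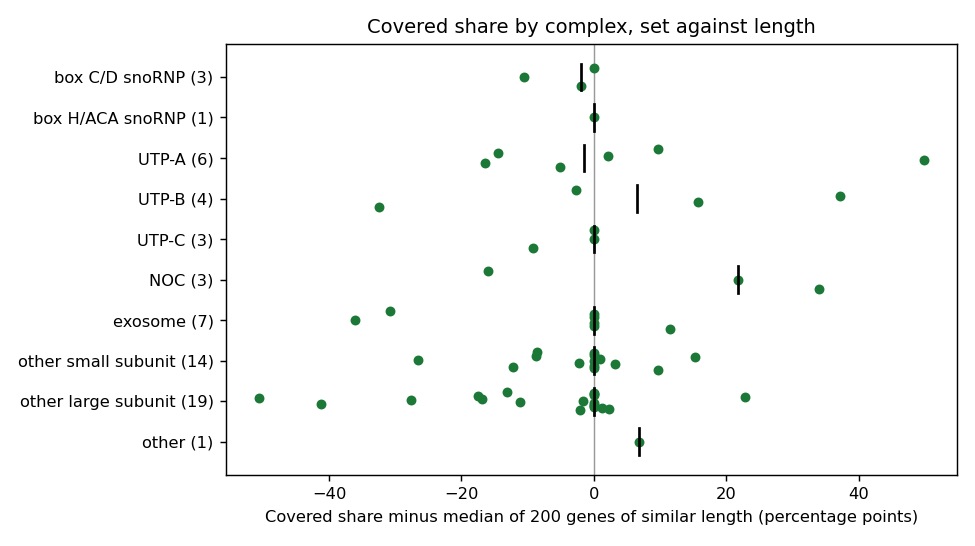
Covered share of each ribosome biogenesis gene minus the median of the 200 other genes nearest in length (x axis, percentage points), by complex (number of genes in brackets). Points are genes and black bars are medians; the points run from -50.5 in NOP53 to 49.9 in UTP5, and the exosome and both groups of other factors have their median at 0.

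At the gene end, regions were more frequent where another gene started nearby. A region touched the window of 100 bp on each side of the end in 42 of 61 genes, or 68.9% (exact interval 55.7 to 80.1%), where the share over all genes was 72.1% and that of genes of similar length 67.3%. Where the start of another protein-coding gene lay within 500 bp of the end, 17 of 18 ends were touched, NOP58 being the exception. Elsewhere 25 of 43 were touched, or 58.1%. In other genes the corresponding shares were 90.0 and 62.7%. Of the 43 genes of at least 1000 bp, 29 had no such neighbour, and 11 of these ends were touched, or 37.9%, against 46.0% of other genes of that length.

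The regions that held the starts ranged from short ones with a single gene start to broad domains. The 61 starts lay in 60 regions of 1024 to 24996 bp, with a median of 4262 bp taken over genes, against 4819 bp for other genes. A region held a median of 3 gene starts, against 4. In 7 genes (NOP4, NOP53, RIX1, SDA1, UTP13, UTP20 and UTP22) it held no start but their own. The same count over other genes is not given here, so this one is a description only. The upstream neighbour was transcribed away from the gene, from a divergent promoter, in 29 of 61 genes, or 47.5%, against 51.9% of other genes, and lay at a median distance of 370 bp, against 457 bp.

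Only RRP8, a ribosomal RNA methyltransferase, and RRP1, a large subunit factor, shared a region, of 13569 bp on chromosome IV from 609328 to 622896. UTP9 and RIX1 are next to each other on chromosome VIII, 237 bp apart and in the same direction, and yet had separate regions of 6866 and 1269 bp. RRP15 and NOC4 are next to each other on chromosome XVI and converge, with 689 bp between their ends, and their separate regions covered 82.0% of the span. The 99 longest regions of the list, of at least 9721 bp, held 10 of the 61 starts, or 16.4%, against 14.4% of other starts. These were the starts of NOP1, NOP6, NOP16, UTP23, RRP1, RRP3, RRP8, RRP9, RRP36 and RRP45. NOP16, a large subunit factor, lay in the longest region that held any of the 61 starts, with 14 gene starts in 24996 bp. RRP9, a protein of the U3 snoRNP, lay at the edge of its region, which ran 18014 bp upstream of its start and 639 bp downstream.

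Ribosome biogenesis genes that the naming rule leaves out also had regions over their starts. Of 110 such genes listed by symbol, such as those of the box H/ACA enzyme CBF5 and the processome proteins PWP2 and MPP10, 108 were matched. A region touched the start window of 107 of the 108, or 99.1% (exact interval 94.9 to 99.98%), beside the 90.5% of all genes. The exception was DHR2, a putative RNA helicase, named here after its value was seen, whose start lay 985 bp from the nearest region. PAC cores were found before 88.0% of these genes and RRPE cores before 73.1%. In genes of at least 2000 bp the region at the start ended inside 19 of the 19 that had one, at a median of 809 bp. In genes of at least 1000 bp it ended inside 45 of 70, or 64.3%, against 86.0% in the 61 genes and 62.0% in other genes. The median covered share of the 108 genes was 100%, and 55.6% were covered from start to end, against 69.2 and 39.3% in the 61 genes. Their median length was 1381.5 bp, against 1542 bp.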

How the data were processed

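The authors trimmed H4K12ac reads with Cutadapt, used Bowtie2 to map them to saccer3, ran Macs2 on the H4K12ac samples by themselves, and joined the peaks over all samples by bedtools merge at its defaults. Versions are not given in the sources used here. They deposited the start and end of each region, in bp, which were used as deposited, with starts counted from 1. The 16 chromosome names match the RefSeq R64 reference, and 0 regions pass a chromosome end. Since peaks of different libraries are joined where they overlap or touch, no region shows which library gave it, and its width may exceed that of each peak in it.

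A window counted as touched from 1 bp of overlap. Similar length means the 200 other genes nearest in length. Repeated sequence was any 50-mer present more than once in the reference on either strand. Intervals cover counting error only. Interval arithmetic was tested on simulated data against base-by-base counts. The genes named are those with the lowest covered share, the longest, those in the longest 5% of regions, adjacent pairs and 13 set by role, as well as genes at the ends of a range, exceptions and short group lists, which were picked after their values were seen. The naming rule, the lists and the motifs were chosen with earlier results of these data known. Promoters were read from the R64 reference. Alternatives were the window, the overlap, the start position, the choice of similar genes, the regions kept and the genes kept. Computations ran in Python 3.11.15 with NumPy 2.4.6 and SciPy 1.17.1, and plots were drawn with Matplotlib 3.10.9.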

Additional observations from a re-analysis of the deposited data

How the results depend on the processing

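No paired analysis was possible because replicates are pooled in the deposited regions. Leaving out a library was likewise impossible, and without scores no stricter peak threshold could be set. Of 62 alternative values planned, 53 stayed within the interval of the main value, as did 7 of 10 added after seeing the data, and 0 reversed. The touched share of starts was 100% in 12 of 13 alternatives, which could not come out otherwise. Every start window lay wholly inside 1 region, and the shortest of these regions was 1024 bp. These 12 count among the values that stayed, but they do not test the main value. The median difference in covered share stayed within its interval in 12 of 13 alternatives. Its main value of 0 rests partly on ties at 100% and has no direction to reverse, so these alternatives test it only weakly. Without the longest 5% of regions the touched share of starts was 83.6%, the median covered share 44.0% and the touched share of ends 50.8%. A gene whose only region is removed then counts as untouched. The touched share of ends was 85.2% with a window of 500 bp and 44.3% with the whole window inside 1 region. The excess of touched starts over genes of similar length ranged from 4.26 to 11.2 percentage points. It was 10.3 with the whole window inside 1 region, 10.5 with 100 genes nearest in length, 10.7 with regions of at least 1000 bp, 10.8 for UTP genes alone and 11.2 for genes of at least 1300 bp. In these last genes, a choice made after seeing the data like the filters on unique windows, the median covered share was 43.0% and its difference from genes of similar length -2.20 percentage points. The median reach over all 61 genes, 935 bp, stayed between 837 and 1125 bp.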

Other observations

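Genes outside both lists of ribosome biogenesis genes can also hold both promoter cores. A region touched the start window of 142 of 143 such genes, or 99.3%, against 90.8% of the 4695 genes with neither core. With the PAC core alone it was 84.3% of 734 genes, and 95.3% of the 641 of these whose window is unique. Among unique windows the shares were 99.3% of 141 genes with both cores and 94.3% of 4492 genes with neither. These are counts in 1 pooled list, made after the values of the ribosome biogenesis genes were seen, and they were not tested. Some genes with both cores share a divergent promoter and its region with a ribosome biogenesis gene, such as GEP3 with NOC2 and VIP1 with UTP21. Such genes were not counted apart, so the 143 are not independent of the genes described above.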
